A study of Mus musculus with 23 samples.

Results

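The oligodendrocyte lineage was followed through 4 genes, Olig2, Sox10, Mag and Mal. They were chosen by gene symbol in the platform annotation of the total RNA arrays, where each was carried by 1 oligo, and they are 4 of 8726 genes (8997 oligos with 1 gene). Female Balb/c mice, 8 weeks old, were the source of the prefrontal cortex RNA. One group had been injected under the skin with 100000 4T-1 cells, a mammary carcinoma line that grows in this strain, in 100 µl of phosphate-buffered saline (PBS). The other group had received the same volume of PBS without cells, and both were killed 18, 72 or 192 h later. No other allele, agent or age is given for either group. The labels do not tell a single animal from pooled animals for a replicate. Each array hybridised RNA of a tumour-injected group and of a PBS group together, in Cy3 and Cy5, and each replicate was a dye swap of 2 arrays. The 14 total RNA arrays of 23 make 7 replicates: 18 h has numbers 4, 5 and 6, while 72 h and 192 h have numbers 3 and 4 each.

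Oligodendrocytes wrap the axons of the central nervous system in myelin, a stack of membrane that speeds conduction and feeds the axon. Olig2 is a basic helix-loop-helix transcription factor that specifies the lineage and is already present in its precursors, and Sox10 is an HMG-box factor that, with Olig2, drives the genes of myelin. Mag encodes myelin-associated glycoprotein, which sits on the innermost myelin membrane facing the axon and inhibits neurite growth, and Mal encodes a small membrane protein of compact myelin that takes part in the sorting of membrane to it.

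In the GRCm38.p6 assembly, the gene annotation of RefSeq places Olig2 at chr16:91225550-91228677, Sox10 at chr15:79154913-79164490, Mag at chr7:30899175-30914922 and Mal at chr2:127633226-127656695. The upstream sequences of Olig2, Mag and Mal, the members found in the promoter table, are shown because SOX and helix-loop-helix factors are 2 of the members. They are the 250 bases before the annotated start, from RefSeq, 5′ to 3′ on the strand of the gene. Olig2 lies on the plus strand (chr16:91225300-91225549), Mag on the minus strand (chr7:30914923-30915172, the start farthest upstream) and Mal on the minus strand (chr2:127656696-127656945). Capitals mark CANNTG, the E-box that helix-loop-helix factors can bind, and the SOX letters ACAAT and ACAAAG, each searched on both strands.
Olig2: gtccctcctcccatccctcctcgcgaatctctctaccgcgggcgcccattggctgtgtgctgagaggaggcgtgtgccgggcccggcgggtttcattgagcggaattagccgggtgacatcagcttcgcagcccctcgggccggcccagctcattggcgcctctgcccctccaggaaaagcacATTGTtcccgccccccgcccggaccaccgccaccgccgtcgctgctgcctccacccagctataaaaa
Mag: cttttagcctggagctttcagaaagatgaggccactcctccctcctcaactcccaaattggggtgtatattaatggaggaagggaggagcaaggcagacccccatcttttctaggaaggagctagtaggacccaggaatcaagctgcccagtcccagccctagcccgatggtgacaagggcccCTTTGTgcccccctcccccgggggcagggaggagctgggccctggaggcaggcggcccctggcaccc
Mal: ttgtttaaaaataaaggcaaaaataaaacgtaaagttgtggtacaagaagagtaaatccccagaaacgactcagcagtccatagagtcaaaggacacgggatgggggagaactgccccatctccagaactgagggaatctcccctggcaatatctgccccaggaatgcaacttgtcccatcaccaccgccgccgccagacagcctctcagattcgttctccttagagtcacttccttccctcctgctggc
The Olig2 window held 1 match to ACAAT, the Mag window 1 match to ACAAAG, and the Mal window none of the 3 motifs. No window shown held an E-box, but the 2 Mag windows not printed, at starts farther downstream, held 2 and 1, and both matches shown lie on the opposite strand. Of 32851 promoter windows of this length, 27.7% held ACAAT, 16.5% held ACAAAG, 38.8% held either and 66.2% held an E-box, so such matches are common, and a match describes letters, not a bound site.

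The ratios are written as log2 of tumour over PBS, so a value above 0 is a higher level in the tumour-injected group. This direction is likely, not settled: it was read from the dyes in the labels together with the sign of the authors' processed values. With the direction turned on all arrays, every sign and rank below would turn, while the shares of oligos given beside the members would be the same for the opposite pattern. The arrays held 2555 to 8025 measured oligos each (median 6840), and a replicate had both its arrays for 2329 to 6700 oligos. Turned to tumour over PBS, the 2 arrays of a swap correlated below 0 across oligos in 6 of 7 swaps (r from -0.60 to 0.16, median -0.27). By the labels such arrays measured the same 2 RNAs, so most replicate values below average arrays that disagree over the oligos at large. Replicate 4 of 192 h was the exception, at 0.16. Whether the labels give the right orientation for each single array of a swap was not tested. If 1 array of a swap were labelled the wrong way, the replicate value would not be a tumour over PBS ratio of either sign. Of 12 neuron markers 9 had a named oligo, and each of these was measured on 7 to 14 arrays, with median brightness percentiles from 10.7 (Syt1) to 97.7 (Stmn2). Of 12 oligodendrocyte markers 5 were carried by a named oligo (the 4 members and Cldn11, a tight junction protein of myelin, at the 87.3th percentile), while the others were not analysed here.

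No member reached an adjusted p under 0.05 at 18, 72 or 192 h. The Olig2, Mag and Mal ratios lay below 0 in both replicates at 72 h, and those of Olig2 and Sox10 lay above 0 in both replicates at 192 h. Limma, fitted to all oligos with 1 coefficient per time, called 0% of 3437 oligos at 18 h, 0% of 4226 at 72 h and 0% of 2762 at 192 h. At an unadjusted p under 0.05 it held 212 oligos (6.17%) at 18 h, 110 (2.6%) at 72 h and 93 (3.37%) at 192 h, and none of the members was among them. In whole tissue, fewer oligodendrocytes and less RNA per oligodendrocyte cannot be told apart.

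**Figure D1:**
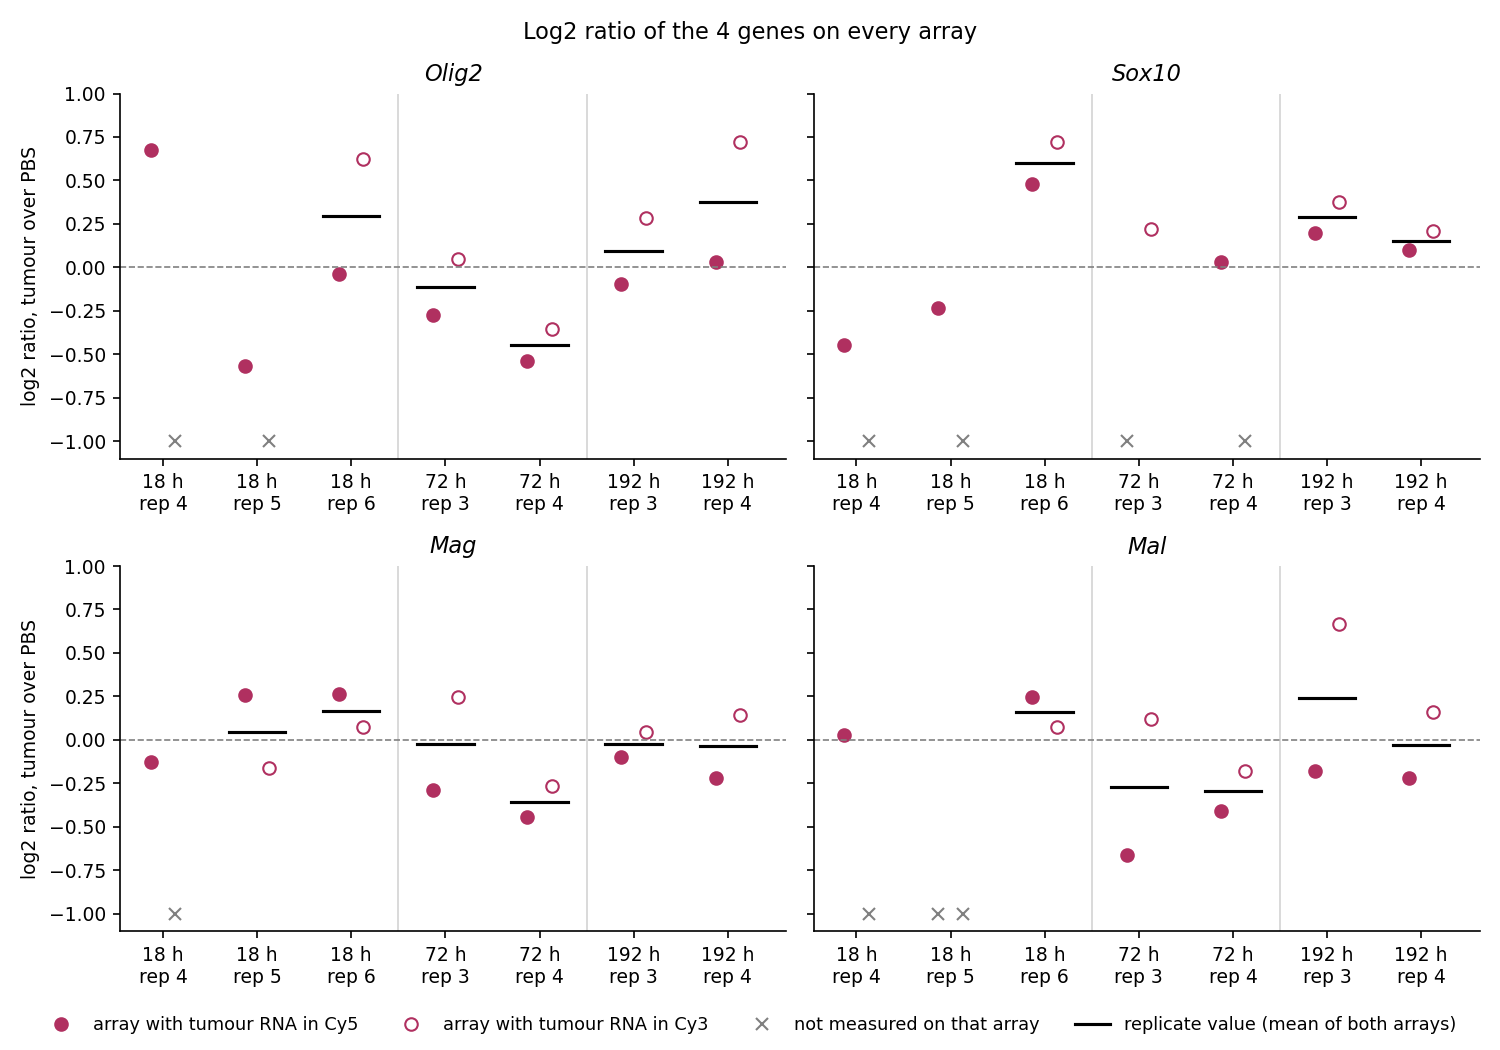
Log2 ratio (tumour over PBS, y axis) of Olig2, Sox10, Mag and Mal for each replicate (x axis, by time). Filled points are arrays with tumour RNA in Cy5, open points arrays with tumour RNA in Cy3, black bars replicate values (the mean of both arrays), and grey crosses, placed at the foot of the panel, arrays on which the oligo was not measured. At 72 and 192 h the filled point lies under the open one in all 14 swaps with both arrays.

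Olig2 had a replicate value at every time, but at 18 h in 1 replicate of 3. At 18 h replicate 6 gave -0.04 with tumour RNA in Cy5 and 0.62 with tumour RNA in Cy3, a mean of 0.29. Replicates 4 and 5 were measured with tumour RNA in Cy5 alone, at 0.67 and -0.57, on opposite sides of 0. At 72 h replicate 3 gave -0.27 and 0.05 (mean -0.11) and replicate 4 gave -0.54 and -0.35 (mean -0.44), the tumour-in-Cy5 array first. At 192 h replicate 3 gave -0.09 and 0.29 (mean 0.10) and replicate 4 gave 0.03 and 0.72 (mean 0.38), in the same order. Both replicates at 192 h thus stood above both at 72 h, although at each time single arrays lay on either side of 0.
The limma estimate was -0.28 ± 0.15 (SE) at 72 h, with a 95% interval of -0.61 to 0.05 (unadjusted p = 0.0916, adjusted p = 0.998). It was 0.24 ± 0.15 at 192 h, with an interval of -0.09 to 0.57 (adjusted p = 1.00). The mean dye-corrected level on the 4 arrays of 72 h was 17.09 in tumour and 17.37 in PBS RNA (log2 intensity), and on the 4 arrays of 192 h it was 18.46 in tumour and 18.22 in PBS RNA. Levels were not normalized between arrays, so they compare tumour with PBS RNA within a time, not the times. The Olig2 spots were faint: their median signal, after background subtraction, was 1.23 times the local background for tumour and 1.01 times for PBS RNA. With only spots whose subtracted signal exceeded the local background, neither time kept the 2 replicates that a test needs. At 18 h no test was made. Taking each array as an observation, with a term for dye, limma put Olig2 there at 0.29 ± 0.18 (adjusted p = 0.808; that fit called 0% of 7887 oligos, and 6.38% had an unadjusted p under 0.05), and with replicates counted on 1 array the value was 0.13.

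Sox10 was measured on 10 of 14 arrays, the fewest of the 4 genes. At 18 h replicate 6 gave 0.48 with tumour RNA in Cy5 and 0.72 with tumour RNA in Cy3, a mean of 0.60. Replicates 4 and 5 had tumour-in-Cy5 values alone, at -0.44 and -0.23. The single replicate with both arrays was therefore high and the other arrays low. At 72 h no replicate had both arrays: replicate 3 was measured with tumour RNA in Cy3 (0.22) and replicate 4 with tumour RNA in Cy5 (0.03). At 192 h replicate 3 gave 0.20 and 0.38 (mean 0.29) and replicate 4 gave 0.10 and 0.21 (mean 0.15), tumour in Cy5 first. All 4 arrays of 192 h lay above 0, which held for no other member at a time with a test.
The limma estimate at 192 h was 0.22 ± 0.15, with a 95% interval of -0.10 to 0.54 (unadjusted p = 0.162, adjusted p = 1.00). In the fit of single arrays with a term for dye, Sox10 stood at 0.22 ± 0.17 at 18 h and 0.13 ± 0.23 at 72 h (limma adjusted p = 0.847 and 1.00). That fit called 0% of the oligos at 72 h and at 192 h, with 2.75% and 3.44% at an unadjusted p under 0.05 and no member among them. When 1 array was enough for a replicate, the 18 h value was -0.02, so its sign depended on how replicates 4 and 5 were counted.

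Mag was measured on 13 of 14 arrays and was the only member tested at all 3 times. At 18 h replicate 5 gave 0.26 and -0.16 (mean 0.05) and replicate 6 gave 0.26 and 0.07 (mean 0.17), tumour in Cy5 first, while replicate 4 had the tumour-in-Cy5 array alone, at -0.13. At 72 h replicate 3 gave -0.29 and 0.25 (mean -0.02) and replicate 4 gave -0.44 and -0.27 (mean -0.35). At 192 h replicate 3 gave -0.10 and 0.05 (mean -0.02) and replicate 4 gave -0.22 and 0.14 (mean -0.04). Replicate 4 at 72 h was the only one with both arrays below 0, and both replicates of 192 h were close to 0.
The limma estimates were 0.11 ± 0.15 at 18 h (interval -0.20 to 0.42, adjusted p = 0.970), -0.19 ± 0.15 at 72 h (interval -0.50 to 0.12, adjusted p = 0.998) and -0.03 ± 0.15 at 192 h (interval -0.34 to 0.28, adjusted p = 1.00). The average over the times was -0.04 ± 0.08 (interval -0.21 to 0.14, adjusted p = 0.996), among 1231 oligos tested at every time, of which limma called 0% (1.62% at an unadjusted p under 0.05). The F test of a difference between the times gave 1.15 for Mag (adjusted p = 0.941), with 0% of the 1231 called and 3.09% at an unadjusted p under 0.05. Without replicate 4 at 72 h the value at that time was -0.02, so 1 replicate carried it. Mag differed by -0.29 ± 0.19 between 72 h and 18 h (72 h minus 18 h, limma adjusted p = 0.940), where 0% of 2059 oligos were called and 2.67% had an unadjusted p under 0.05. For 192 h minus 18 h it was -0.14 ± 0.19 (limma adjusted p = 0.924), with 0% of 1609 oligos called and 5.47% at an unadjusted p under 0.05.

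Mal was measured on 11 of 14 arrays. At 18 h replicate 6 gave 0.24 with tumour RNA in Cy5 and 0.07 with tumour RNA in Cy3 (mean 0.16). Replicate 4 had the tumour-in-Cy5 array alone (0.03), and neither array of replicate 5 held a value. At 72 h replicate 3 gave -0.66 and 0.12 (mean -0.27) and replicate 4 gave -0.41 and -0.18 (mean -0.29), tumour in Cy5 first. At 192 h replicate 3 gave -0.18 and 0.66 (mean 0.24) and replicate 4 gave -0.22 and 0.16 (mean -0.03). The replicate values of 72 h lay close together, while their arrays in 1 of the 2 swaps had opposite signs, as did those of both swaps of 192 h.
The limma estimate was -0.28 ± 0.15 at 72 h, with an interval of -0.60 to 0.03 (unadjusted p = 0.0752, adjusted p = 0.998), and 0.11 ± 0.15 at 192 h, with an interval of -0.21 to 0.42 (adjusted p = 1.00). Over the 4 arrays of 72 h the mean level was 18.35 in tumour and 18.63 in PBS RNA (log2 intensity). Over those of 192 h it was 20.76 in tumour and 20.65 in PBS RNA. These levels too were not normalized between arrays, so the times cannot be compared by them. At 18 h, where no test was made, the fit of single arrays gave 0.18 ± 0.16 (limma adjusted p = 0.862).

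**Figure D2:**
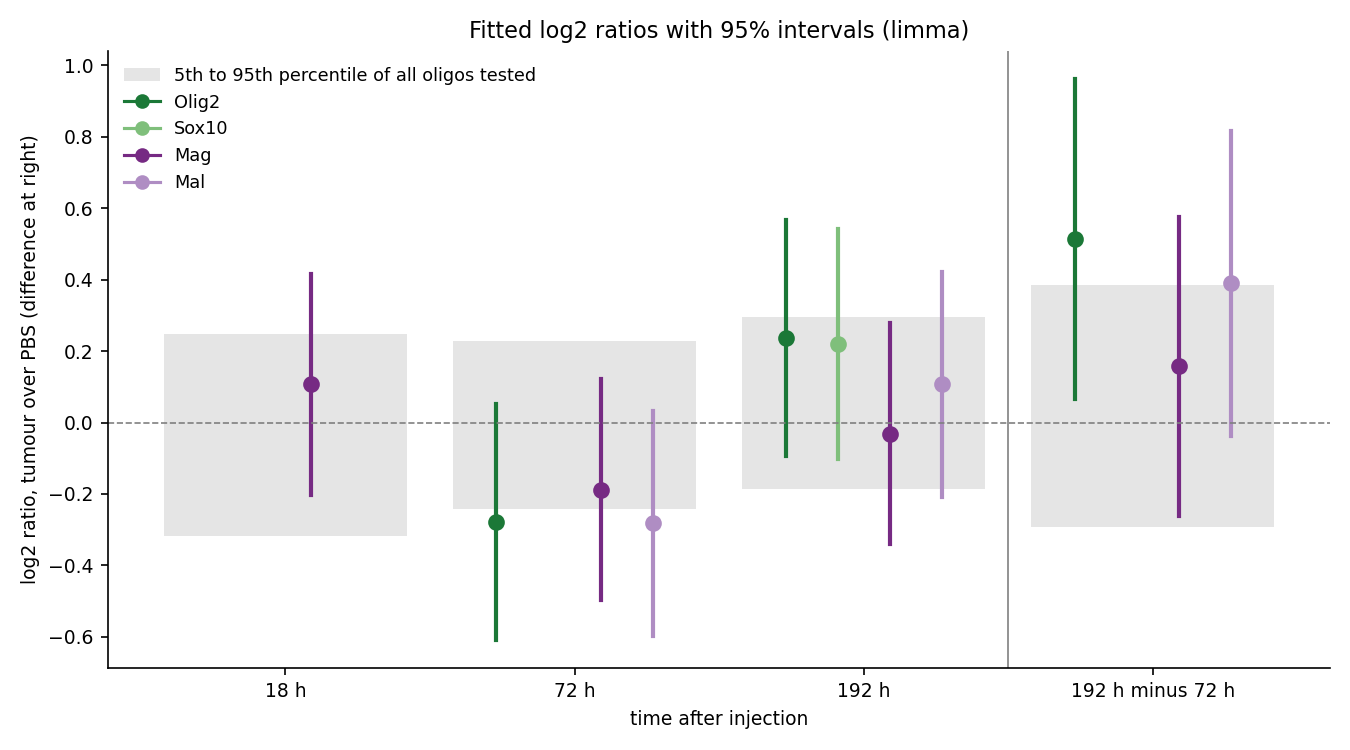
Fitted log2 ratio (tumour over PBS, y axis) at 18, 72 and 192 h and the difference 192 h minus 72 h, for the members that could be tested. Points are limma estimates, vertical lines their 95% intervals, and grey bands the 5th to 95th percentile of all oligos tested in that comparison; Olig2 and Mal lie under the band at 72 h, and Olig2 and Mal lie above it in the difference.

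At 18 h the 1 member tested, Mag, had its 2 replicates above 0, as did all replicates of 18.9% of the 3437 oligos, with 21.8% below 0. At 72 h the 3 members tested all had both replicates below 0, against 27.2% of all 4226 oligos (21.4% had both above 0). Mal stood lower than all but 2.96% of these oligos, Olig2 lower than all but 3.15% and Mag lower than all but 10.6% (higher than all but these shares with the direction turned). At 192 h 2 of 4 members, Olig2 and Sox10, had both replicates above 0, against 26.5% of 2762 oligos, and 1 of 4, Mag, had both below 0, against 22.2%. The estimates of Olig2 and Sox10 were higher than those of 91.5% and 90.4% of the oligos (lower, with the direction turned). The members were measured on the same arrays, so such counts are not independent of each other.

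Among the contrasts between times that could be tested for a member, the widest was that of Olig2 between the later times. The tumour over PBS ratio of Olig2 was higher at 192 h than at 72 h by 0.51 ± 0.21 on the log2 scale, with a 95% interval of 0.07 to 0.96. Limma gave it an unadjusted p of 0.0272 and an adjusted p of 0.979, so it did not pass. Mal differed by 0.39 ± 0.20 (interval -0.04 to 0.82) and Mag by 0.16 ± 0.20 (interval -0.26 to 0.58), both with a limma adjusted p of 0.979.
In this contrast limma called 0% of 1932 oligos, and 74 (3.83%) had an unadjusted p under 0.05. The difference of Olig2 exceeded that of 98.2% of the oligos and that of Mal 95.3% (both would lie below those shares of the oligos with the direction turned). Both replicates of 192 h stood above both of 72 h for Olig2 and Mal, 2 of the 3 members tested, against 18.2% of the oligos. Olig2 alone of the 3 also had both replicates above 0 at 192 h and both below 0 at 72 h, against 6.52%. In the fit of single arrays with a term for dye, the difference of Sox10 was 0.10 ± 0.28 and that of Olig2 0.51 ± 0.24 (limma adjusted p = 0.995 for each), where 0% of 5269 oligos were called and 3.38% had an unadjusted p under 0.05.
Under normexp background correction the difference was 1.05 for Olig2 and 0.64 for Mal, and when loess was run block by block it was 0.33 for Olig2 and 0.15 for Mal. The 72 h estimates moved likewise, from -0.55 with normexp to -0.15 with median centring for Olig2 and from -0.46 with normexp to -0.18 with loess by block for Mal. Replicate 3 of 192 h was on another printing of the array than the other 6 replicates, and without it the difference was 0.66 for Olig2 and 0.25 for Mal. The part of the printing in these values was not tested. Among markers of other cells tested in this difference, 3 of 4 neuron genes lay above 0 (median 0.30), 1 of 3 astrocyte genes (median -0.01), 1 of 1 microglia genes (0.03) and 1 of 2 endothelial genes (median 0.37), and their part was not tested either.

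**Figure D3:**
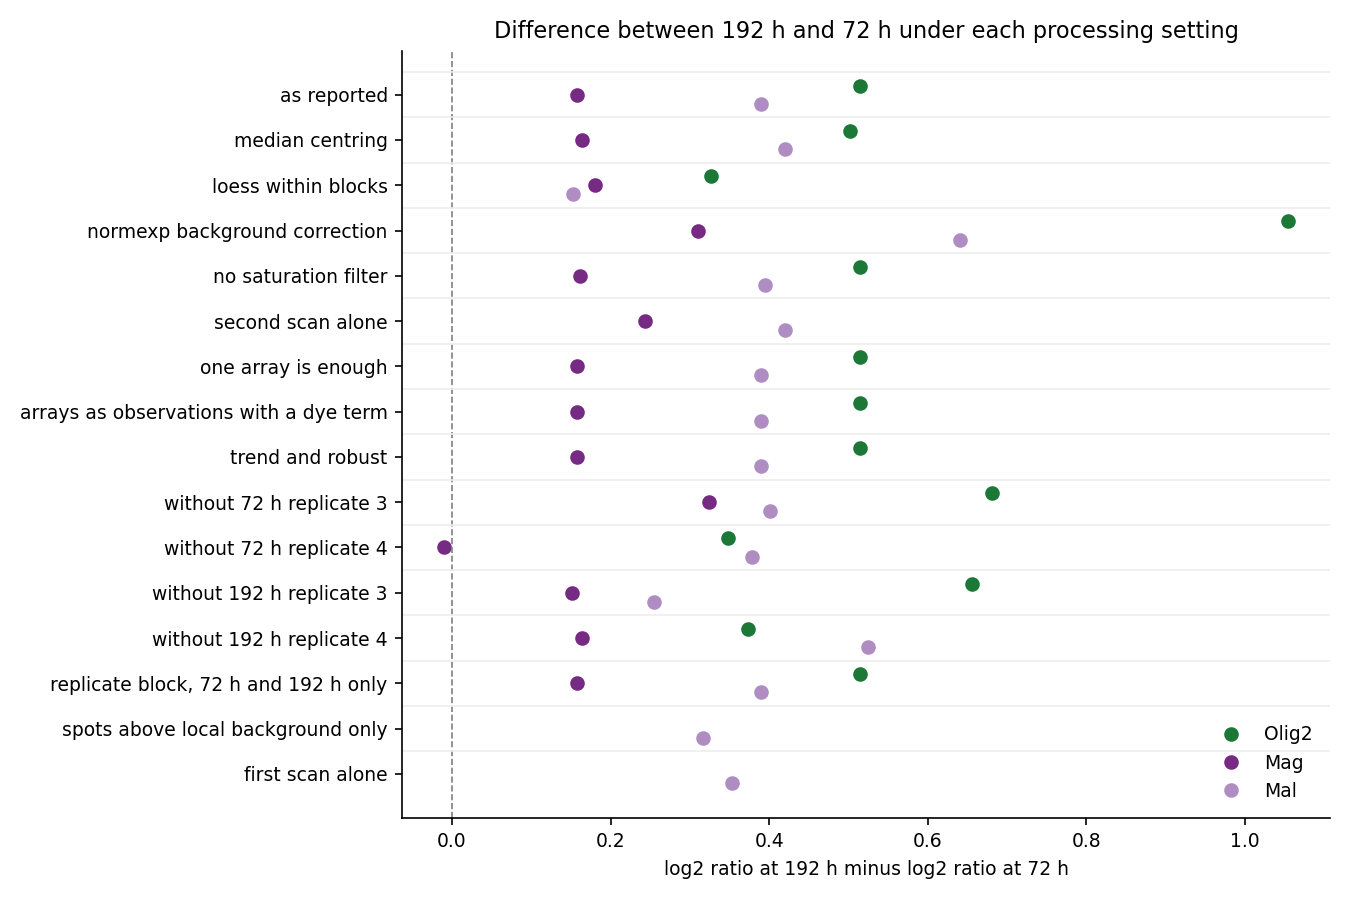
Difference of the log2 ratio (tumour over PBS), 192 h minus 72 h (x axis), for Olig2, Mag and Mal under each processing setting (y axis). Each point is 1 fit; a missing point means that the setting left too few replicates, and the authors' log ratios, of unknown base, are not plotted. Olig2 lies between 0.33 and 1.05, Mal above 0 under every setting plotted, and Mag at -0.01 without replicate 4 of 72 h.

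The ratios of the 4 genes were mostly lower on the array that carried tumour RNA in Cy5. Over the 19 swaps of a member with both arrays, the array with tumour RNA in Cy5 gave the lower ratio in 16 (84.2%), against 45.8% to 52.9% of all oligos in single swaps. At 72 h this held in 6 of 6 and at 192 h in 8 of 8, but at 18 h in 2 of 5. In 10 of 19 the 2 arrays had opposite signs. Over the 4 genes the median difference, tumour in Cy5 minus tumour in Cy3, was -0.24 log2 units.
A dye term, the ratio with tumour RNA in Cy5 minus that with tumour RNA in Cy3, was fitted with limma to oligos measured often enough in both orientations. It was -0.45 ± 0.20 for Olig2 (unadjusted p = 0.0448, adjusted p = 0.408), -0.37 ± 0.21 for Sox10 (adjusted p = 0.520), -0.12 ± 0.15 for Mag (adjusted p = 0.775) and -0.41 ± 0.17 for Mal (unadjusted p = 0.0315, adjusted p = 0.377). None of the 4 passed, and 0.588% of 7822 oligos did, all with the lower value in Cy5. The share of oligos with an unadjusted p under 0.05 was not counted for this term. The unadjusted values of Olig2 and Mal therefore do not set them apart. The term is a gap between the arrays of a swap, to which both arrays add. Its size therefore cannot be set directly against a fitted tumour over PBS ratio. Each replicate value holds both orientations, so only a dye part of equal size on both arrays would average out of it. The gap differed in size between swaps, as for Mal at 192 h (-0.84 in replicate 3 and -0.38 in replicate 4). Whether the gap comes from the dyes was not tested. The 3 scans of an array agreed more closely than the arrays did, with a median SD between scans of 0.06 log2 units over the members.

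**Figure D4:**
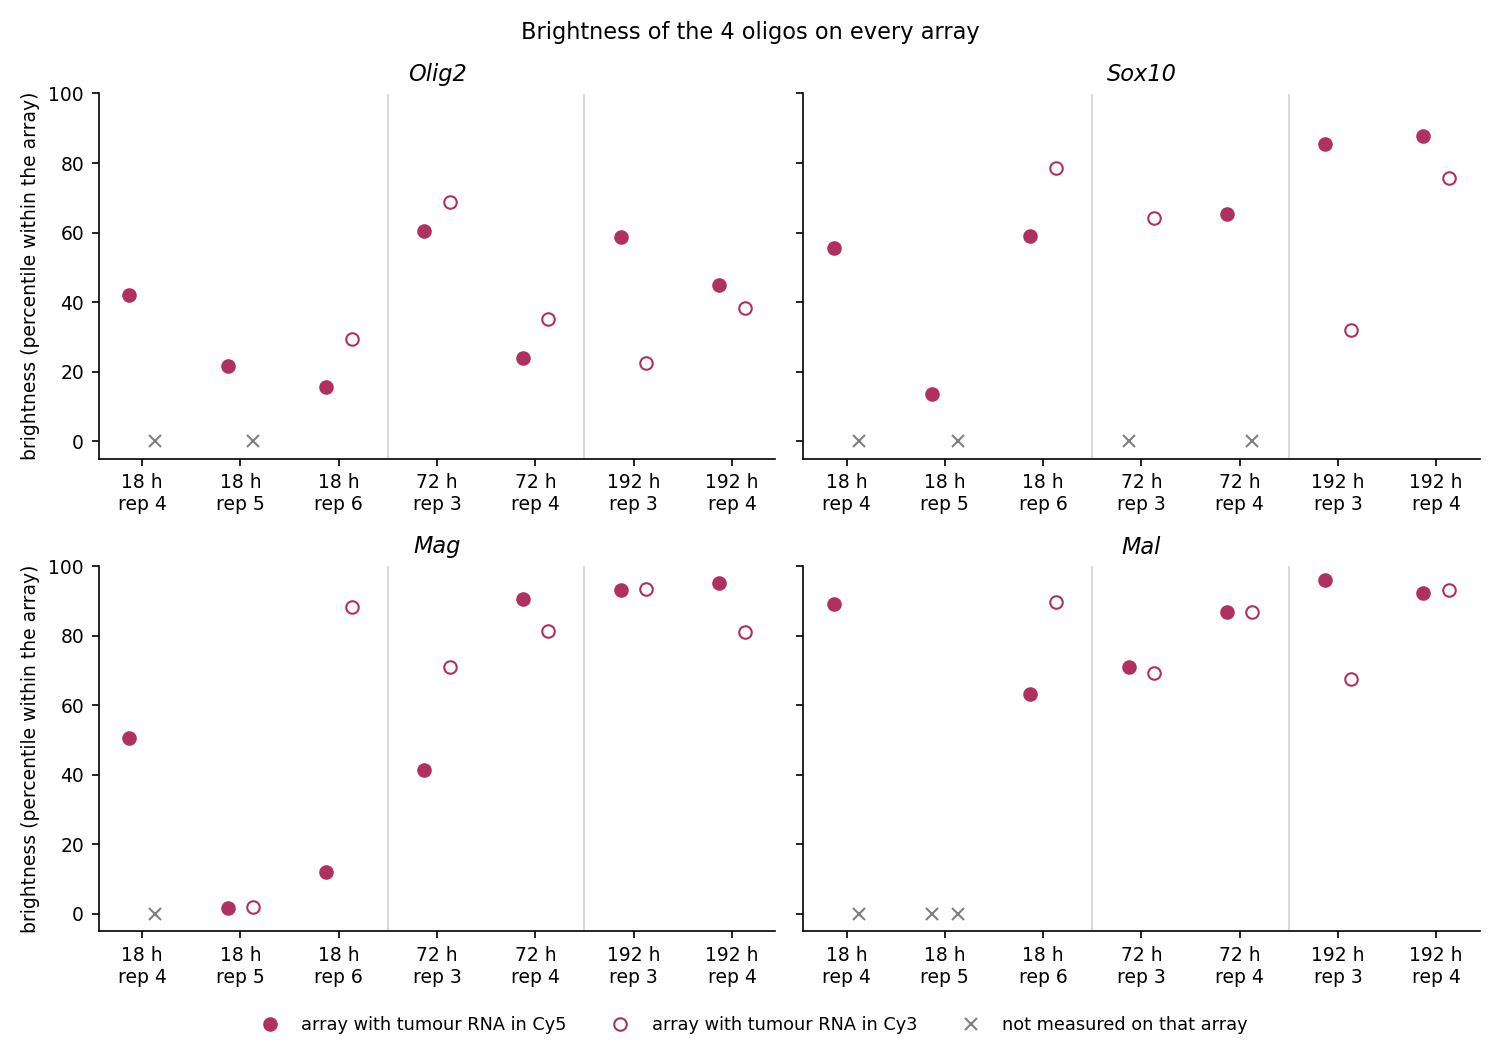
Brightness of the oligo of each member, as its percentile among the oligos measured on that array (y axis), for each replicate (x axis, by time). Filled points are arrays with tumour RNA in Cy5, open points arrays with tumour RNA in Cy3, and grey crosses at the foot arrays on which the oligo was not measured. Mag lies at 1.74 and 1.98 on both arrays of replicate 5 at 18 h and between 80.9 and 95.2 on the arrays of 192 h.

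The 4 oligos were detected on most arrays, in 46 of 56 cases, and a median oligo on 10 of 14 arrays. Of the 10 missing values 8 were at 18 h, and the tumour-in-Cy3 array of replicate 4 at 18 h held none of the members. There the tumour channel was listed at 0 on all 3 scans for each of them, while the PBS channel of Mal and of Olig2 was above 0 on every scan. On that array 32.8% of the oligos had Cy3 at 0 on all scans and 20.3% had Cy5 at 0, so a 0 was common in both channels.
Brightness was ranked within each array and is compared here only for 1 oligo across arrays. Mag had a median percentile of 80.9 over its 13 arrays but ranged over 93.4 percentile points, against a median range of 64.1 points for the 4616 oligos measured on 10 or more arrays. Its low values were at 18 h, on both arrays of replicate 5 (1.74 and 1.98) and on the tumour-in-Cy5 array of replicate 6, all lower than on the other 10 arrays, and 2 of these 3 values came from 1 scan each. The range was 32.7 points for Mal, 53.3 for Olig2 and 74.3 for Sox10. On the 4 arrays of 192 h Mag had a median percentile of 93.4. Against the local background the order differed: with only spots whose background-subtracted signal exceeded it, Mag kept its 2 replicates at 18 h (0.18) and none at 72 h.

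Mag and Mal had the same sign on 10 of the 11 arrays that held both and in 4 of 5 replicates. Mal and Olig2 did so on 9 of 11 arrays and in 4 of 5 replicates, and Mag and Olig2 on 8 of 12 arrays and in 3 of 5 replicates. Sox10 shared the sign of Olig2 on 6 of 10 arrays and in 3 of 3 replicates, and that of Mag on 6 of 10 arrays and in 1 of 3 replicates. With Mal, Sox10 shared the sign on 5 of 9 arrays and in 2 of 3 replicates. Arrays share RNA in pairs and carry the gap between swap arrays given above, so these counts are descriptions. Mag alone had a value in 6 replicates, the number required to search for genes of like pattern. Among 825 candidates with the same 6 replicates, the nearest were Stk11 (r = 0.93), Tmem116 (r = 0.92) and Nt5m (r = 0.92), the highest of 825 and hence high by selection. Mal and Olig2 had 5 values and Sox10 had 3, so no such genes are given for them.

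Genes around the members were mixed at 18 h, mostly below 0 at 72 h and mixed at 192 h. Of 79 other genes of myelin structure, myelin lipid synthesis, lineage control, precursors, myelination signals and partners of myelin inhibitors, 43 were on the arrays. At 18 h 20 could be tested, with 9 above and 11 below 0 and a median of -0.02 (all genes -0.01). At 72 h 18 of 23 lay below 0, with a median of -0.07 (all genes -0.02, of which 45.6% lay above 0). At 192 h 14 of 24 lay above 0, with a median of 0.05 (all genes 0.02, of which 55.3% lay above 0). In the difference 192 h minus 72 h 11 of 16 lay above 0, with a median of 0.12 (all genes 0.04, of which 56.5% lay above 0). Limma called 0 of them at each time and in this difference, and 2, 1, 0 and 0 had an unadjusted p under 0.05 at 18 h, 72 h, 192 h and in the difference.

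**Figure D5:**
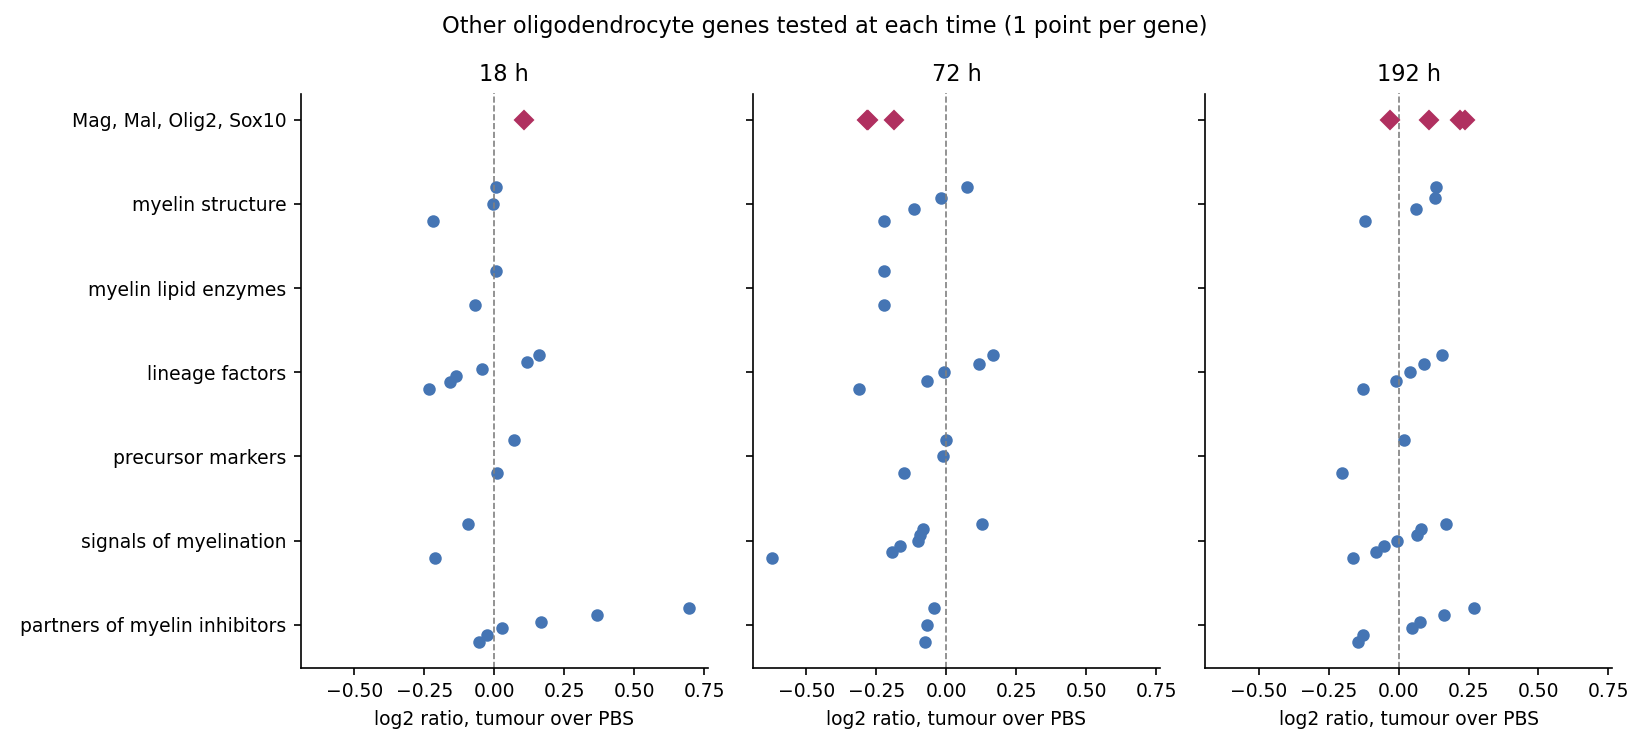
Fitted log2 ratio (tumour over PBS, x axis) at 18, 72 and 192 h for the members (diamonds, top row) and for the other genes by list (circles, 1 per gene and list). The lists hold oligodendrocyte genes and, among the partners of myelin inhibitors, genes of the axon. Pllp, which is on more than 1 list, is drawn on each. At 72 h 18 of 23 of the other genes lie left of 0, and at 192 h 10 of 24.

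At 72 h the 2 myelin lipid genes tested were below 0, Cers2, a ceramide synthase of long-chain myelin lipids, at -0.22 and Pllp, the gene of plasmolipin, a membrane protein of myelin (also on the list of myelin structure), at -0.22. Signals of myelination had 6 of 7 below 0, among them Apod, a lipid carrier made by oligodendrocytes, at -0.62 ± 0.20 (limma unadjusted p = 0.00727, adjusted p = 0.998), Erbb3, a neuregulin receptor, at -0.20 and Gsn, the actin-severing gelsolin, at -0.17. The replicates of Apod stood at -1.13 and -0.11 and those of Pllp at -0.47 and 0.02, so replicate 3 carried both. Lineage factors were divided, with Hes5, a Notch target that holds precursors back, at -0.31 (-0.78 in replicate 3 and 0.16 in replicate 4) and 2 of 5 above 0.
Partners of Mag and of other myelin inhibitors held the 2 genes of smallest p at 18 h. Cntnap1, which anchors the paranodal junction on the axon, stood at 0.70 ± 0.23 (limma unadjusted p = 0.00905, adjusted p = 0.745) and Rtn4r, the Nogo receptor to which Mag also binds, at 0.37 ± 0.14 (limma adjusted p = 0.745). Cntnap1 had replicate values of 1.33 and 0.07 and Rtn4r of 0.32 and 0.42, so the 2 replicates lay close together for Rtn4r alone. Next by p came genes of other lists: S1pr5, a sphingosine 1-phosphate receptor of oligodendrocytes, at -0.21, the tetraspanin Cd82 at -0.22 and Id4 at -0.23. After these came Lrp1, an endocytic receptor on the list of partners, at 0.17.
At 192 h the 6 genes of smallest p ranged from -0.20 to 0.27. Cntn2, a cell adhesion molecule of the juxtaparanode, was at 0.27, S1pr5 at 0.17, Omg, another myelin inhibitor, at 0.16 and Id4, an inhibitor of helix-loop-helix factors, at 0.16. Bcan, the proteoglycan brevican, was at -0.20 and the cytokine Il33 at -0.16, and Cldn11, a structural gene of myelin, was at 0.06 ± 0.15 (limma adjusted p = 1.00).

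Markers of other cortical cells lay on both sides of 0 at 72 h and at 192 h. At 72 h 2 of 5 neuron genes tested lay above 0 (median -0.01), 3 of 3 astrocyte genes (median 0.06), 2 of 4 microglia genes (median -0.05) and 1 of 2 endothelial genes (median -0.22). The 3 oligodendrocyte markers tested there were the members Mag, Mal and Olig2 themselves (0 of 3 above 0, median -0.28). At 192 h 3 of 5 neuron genes lay above 0 (median 0.31), 3 of 4 astrocyte genes (median 0.06), 0 of 3 microglia genes (median -0.22) and 2 of 2 endothelial genes (median 0.15). The 5 oligodendrocyte markers tested there were the 4 members and Cldn11 (4 of 5 above 0, median 0.11). None of the markers was called by limma, and the part of the other cells in the ratios of the members was not tested.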

How the data were processed

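Per the file headers, every array was deposited as 3 scans of 10080 spots in 48 blocks, each spot with an integrated intensity per channel and a fraction of unsaturated pixels. The authors' value tables hold 1 processed log ratio per spot, read as a score because its base is unknown; each column had a median near 0. Neither the image program nor the authors' normalization is named in the sources used here. RNA was extracted and reverse transcribed as total RNA, per the labels' protocols, and 9 poly A arrays were not used here. Channel B was read as Cy5, since the authors' log ratios followed B over A on arrays with tumour RNA in Cy5 (r 0.51 to 0.85) and the reverse on the others (r -0.86 to -0.40).

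Spots flagged as good, with both intensities above 0 and a fraction of at least 0.9, entered the log2 ratios, which were corrected by loess (span 0.3), averaged over scans and turned to tumour over PBS. Both swap arrays were averaged into a replicate value, which needs both. Oligos with at least 2 replicate values at a time entered a limma fit (limma 3.58.1, R 4.3.3; 1 coefficient per time, two-sided, Benjamini-Hochberg over all oligos tested). The planned normexp correction (offset 50) was run as an alternative, because the intensities were already background-subtracted. Scripts were tested on simulated data. The members, lists and tests were chosen with earlier results of these data known. Other genes were named as the 6 of smallest unadjusted p per time over the lists, as cell type markers, or as the 3 of highest r with a member over at least 6 replicates. The dye term and the contrasts with 18 h were added after seeing the data. Alternatives covered centring, loess by block, scans, filters, the authors' log ratios, arrays as observations, robust limma, the replicate block and leaving out each replicate. P-values rest on the spread between these replicates, which may be technical, and the number of arrays limits the precision.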

Additional observations from a re-analysis of the deposited data

Results flagged for a closer look

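The differences between time points given next are set out here because the replicates of 1 time lay on the opposite side of 0 from those of the other. The tumour over PBS ratio of Olig2 was higher at 192 h than at 72 h by 0.51 on the log2 scale, with both replicates above 0 at 192 h (0.10 and 0.38) and both below 0 at 72 h (-0.11 and -0.44). This pattern held for 6.52% of 1932 oligos, and the limma test of this difference did not pass (adjusted p = 0.979). The ratio of Mag at 72 h minus that at 18 h was -0.29, with -0.02 and -0.35 at 72 h and 0.05 and 0.17 at 18 h (limma adjusted p = 0.940; 0 of 2059 oligos were called and 55, 2.67%, had an unadjusted p under 0.05). For Mag at 192 h minus 18 h it was -0.14, with -0.02 and -0.04 at 192 h (limma adjusted p = 0.924; 0 of 1609 oligos called and 88, 5.47%, at an unadjusted p under 0.05). The 18 h values of Mag include those of replicate 5, where its oligo was near the bottom of the brightness range. Replicate 4 at 18 h, measured on the tumour-in-Cy5 array alone, lay on the other side of 0, at -0.13. With replicates counted on 1 array, the 18 h value of Mag was 0.03. All replicates lay above 0 at 18 h for 18.9% of 3437 oligos. Both lay below 0 for 27.2% of 4226 at 72 h and for 22.2% of 2762 at 192 h. The share of oligos that joined such patterns at 18 h and a later time, as Mag did, was not counted. The differences of Mag are therefore descriptions and are not read as particular to it.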

How the results depend on the processing

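Under the alternatives 7 values of the members changed sign and none passed the threshold. Many alternatives, such as leaving out a replicate of another time, could not move an estimate, so the number of unchanged values is no measure of stability. At 192 h Mag was 0.047 with loess within blocks and 0.0030 in the authors' log ratios (of unknown base), against -0.03 as reported, and Mal was -0.022 and -0.0028 there, against 0.11. Leaving out 1 replicate at a time gave -0.028 to 0.24 for Mal at 192 h, -0.093 to 0.018 for the average of Mag and -0.0093 to 0.32 for Mag at 192 h minus 72 h. The cause was not tested. Some alternatives left too few replicates for a value: the filter on local background for Olig2 at 72 h and 192 h and for Mag at 72 h, single scans for each member at 1 time or more, and loess within blocks and the authors' log ratios for Mag at 18 h. Olig2 at 192 h minus 72 h ranged from 0.35 to 0.68 when 1 replicate was left out, and its limma adjusted p was 0.676 to 1.00 over all alternatives. Over all oligos, limma called 8 at 18 h and 1 at 192 h under median centring, in place of 0. Leaving out 1 replicate gave 0 to 1 calls at 72 h (1 without replicate 4), 0 to 19 at 192 h (19 without replicate 3) and 0 to 5 in the difference 192 h minus 72 h (4 without replicate 3 of 72 h, 5 without replicate 3 and 1 without replicate 4 of 192 h); a lone replicate is assumed to vary like the other times. With a replicate block for the shared numbers 3 and 4 at 72 h and 192 h, the difference was 0.51 for Olig2, 0.39 for Mal and 0.16 for Mag, as the balanced design fixes, and 0 oligos were called. Same-numbered replicates did not deviate together (r = 0.00092 over 1932 oligos), so the numbers were not taken as pairs. Faint spots limit Olig2, whose median background-subtracted signal was about as large as the local background.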
